A study of Mus musculus with 12 samples.

Results

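The endoplasmic reticulum (ER) unfolded-protein genes described here are Hspa5, Hsp90b1, Calr, Pdia4, Sdf2l1, Creld2, Dnajb9, Xbp1, Herpud1 and Edem1. They were taken by gene symbol, and all 10 were found among the 17995 genes with deposited values. RNA-seq was performed on 12 libraries from 2 mouse cell lines, C18-4 (labelled as spermatogonial stem cells) and TM4 (labelled as Sertoli cells). In each line 3 libraries came from cells given shM5, a mix of 3 short hairpin RNAs against the muscarinic acetylcholine receptor M5, and 3 from cells given the control hairpin shNC. The hairpins were carried by lentiviral vectors and introduced with a transfection reagent, and stably transfected cells were cultured, so control cells carried a vector too. The labels give the mouse strain as IRC and no age, time or dose. Nothing states whether the libraries of a group came from separate cultures or clones, so p-values measure only the spread between these libraries.

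The unfolded protein response is the signalling that cells use to match the folding capacity of the ER to its load of secreted and membrane proteins. The sensors ATF6 and IRE1 raise the mRNA of ER chaperones and degradation factors, ATF6 by its own cleaved fragment and IRE1 through splicing of Xbp1 mRNA. The sensor PERK instead phosphorylates the translation factor eIF2α, which favours translation of the transcription factor ATF4. Other kinases that sense amino acid shortage, haem deficiency or viral RNA phosphorylate the same site, so ATF4 and its targets can rise with or without ER stress. Hspa5 and its partners are therefore the usual readout of the ER branch, while genes such as Ddit3, Trib3, Chac1 and Asns are the usual readout of ATF4. Secretory cells of the testis, Sertoli cells among them, depend on this folding machinery for the fluid and matrix proteins they release.

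The quantity deposited for each gene and library is RPKM, a read number scaled by the length of the gene and by the size of the library. Read numbers themselves are not given, so counting error could not be estimated. A value for 1 read was sought in 496 genes whose values lay near whole multiples of a step. Its relative sizes were 0.994 to 1.01. Genes nearly equal in all libraries also pass this search and give sizes near 1, so it does not show the depth of the libraries. Chrm5, the gene of M5, was listed at no more than 0.01 RPKM in any library and does not check the labels. Of 13 spermatogonial markers, 2 reached a mean of 0.5 RPKM in each group of both lines. Their summed levels were 3.98 to 6.72 RPKM in C18-4 cells and 9.72 to 17.3 RPKM in TM4 cells. Kit and Stra8 were listed at 0 in C18-4 cells. Wt1, a Sertoli marker, was at 58.6 RPKM in C18-4 shNC cells and at 0.0967 RPKM in TM4 shNC cells, and Amh and Cldn11 were near 0 in both lines. TM4 shNC cells had the Sertoli markers Sox9 at 1.35 RPKM and Inhbb at 14.9 RPKM. Of 12 Sertoli markers, 7 reached 0.5 RPKM in C18-4 cells, with summed levels of 77.6 to 91.9 RPKM over the libraries, and 6 in TM4 cells, with sums of 25.4 to 36.6 RPKM. The C18-4 label was thus not borne out by its markers, and the TM4 label at most in part. Both sums ran against the labels, with spermatogonial markers higher in TM4 cells and Sertoli markers higher in C18-4 cells. Fibroblast and myoid markers reached 0.5 RPKM in 7 of 9 cases in C18-4 cells and in 8 of 9 in TM4 cells, against 1 to 2 of 7 Leydig markers and 2 of 5 macrophage markers, and their part in the results was not tested. In TM4 cells, shNC replicate 3 stood apart from its own group. Its root mean square distance over all tested genes, on the log2 scale, was 0.640 and 0.642 to shNC replicates 1 and 2 but 0.202 to 0.257 to the 3 shM5 libraries, while shNC replicates 1 and 2 lay 0.189 apart. In C18-4 cells, replicate 3 stood apart from replicates 1 and 2 in both groups, at 0.376 to 0.438. Results are therefore given with and without these libraries.

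The promoters were examined first, because the ER branch acts through a short DNA element, the ER stress element (ERSE). It reads CCAAT, then any 9 bases, then CCACG. NF-Y binds the first part and ATF6 the second. Promoter windows of 250 bases before to 50 bases after the annotated gene start, from RefSeq on the GRCm38.p6 build, were found for all 10 genes and searched on both strands. The Edem1 window surrounds a start inside the span that RefSeq gives this gene and not the first base of that span, which was not searched. The full element was present in 4 of the 10, Hspa5, Hsp90b1, Calr and Creld2, against 17 of 9729 expressed genes (0.175%) and 0.137% of all 27025 genes with a window. Hsp90b1 held it at 2 places. These 4 genes are counted among the 17, and the 10 were chosen as genes of this response, so the contrast is a description. The stretches are shown 5′ to 3′ on the strand of the gene because they carry the letters that the protein partners of the response read. Capitals mark the parts of the element, which appear as CGTGG and ATTGG where the element lies on the other strand.
Hspa5, chr2:34772020-34772048, plus strand: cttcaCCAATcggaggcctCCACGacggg
Hsp90b1, chr10:86705633-86705661, minus strand: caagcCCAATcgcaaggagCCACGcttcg
Hsp90b1, chr10:86705528-86705556, minus strand: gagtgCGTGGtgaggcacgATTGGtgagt
Calr, chr8:84847070-84847098, minus strand: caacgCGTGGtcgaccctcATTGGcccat
Creld2, chr15:88819515-88819543, plus strand: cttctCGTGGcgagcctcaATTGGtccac

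Herpud1 differed from the other 9 in its window. It alone held the related element ERSE-II, which joins ATTGG to CCACG over 1 base and which 0.103% of expressed genes held. It also held TTGCATCA, a form of the C/EBP-ATF response element through which ATF4 acts, which 0.709% of expressed genes held. The stretches are shown because Herpud1 is the gene whose level differed most from the chaperones, as described below.
Herpud1 ERSE-II, chr8:94386368-94386396, plus strand: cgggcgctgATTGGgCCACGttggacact
Herpud1 C/EBP-ATF element, chr8:94386306-94386335, plus strand: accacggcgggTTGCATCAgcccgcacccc

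Pdia4, Sdf2l1, Dnajb9, Xbp1 and Edem1 held neither full element in these windows, and in Xbp1 neither part was present. For Edem1 this holds for the inner start alone. The parts alone are common, since CCACG was in the windows of 52.3% and CCAAT in those of 44.1% of expressed genes. The XBP1 element TGACGTGG and the ATF4 element TGATGNAAT were in none of the 10. They were in 1.05% and 0.576% of expressed genes, so none in 10 is near the background. Of 36 listed ATF4 targets, 31 had a window, 6 of these held an ATF4-type element and 0 held ERSE. Among expressed genes 0.576% held TGATGNAAT, 0.709% TTGCATCA and 0.175% ERSE, so 0 with ERSE is near the background. The list was chosen as ATF4 targets, so the 6 are a description. A match of letters is a description of the window and not a measured binding site.

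**Figure D1:**
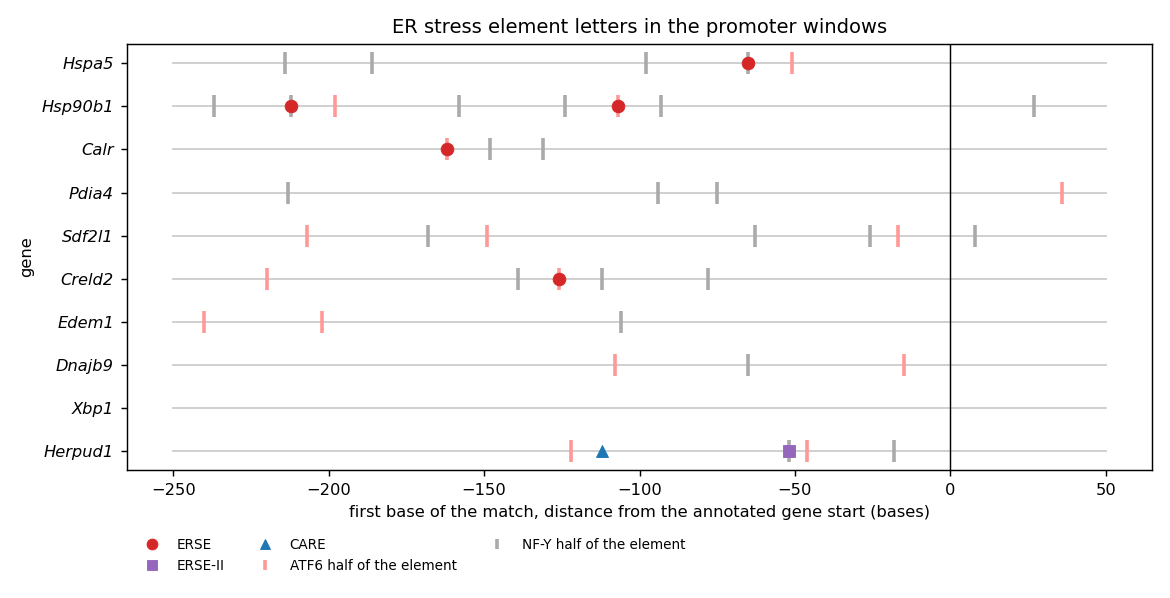
Matches to the ER stress elements in the promoter windows of the 10 genes, by distance of the first base of the match from the annotated gene start (x axis, bases; start at 0). Circles mark the full element (ERSE), found in 4 genes, the square and the triangle mark ERSE-II and the C/EBP-ATF element (CARE), found in Herpud1, and ticks mark the NF-Y and ATF6 parts alone.

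Levels of mRNA, which RPKM makes comparable between genes of different length, spread over a wide range. In C18-4 shNC cells Calr was highest at 1086 ± 203 RPKM (SD, n = 3), followed by Hsp90b1 at 762 ± 106 RPKM and Hspa5 at 546 ± 133 RPKM. Pdia4, Creld2, Xbp1, Herpud1 and Sdf2l1 followed, and Dnajb9 (19.55 ± 0.209 RPKM) and Edem1 (19.5 ± 0.631 RPKM) were lowest. Neighbours in this order did not overlap between libraries, except that Xbp1 and Herpud1 overlapped, as did Dnajb9 and Edem1. With shM5 the order of the first 5 genes was the same and the same pairs overlapped. In TM4 shM5 cells Calr (1187 ± 23.6 RPKM), Hspa5 (604 ± 14.5 RPKM) and Hsp90b1 (541 ± 15.4 RPKM) led without overlap, so Hspa5 stood above Hsp90b1 there and below it in C18-4 cells. In TM4 shNC cells the levels of many neighbours overlapped, because the 3 libraries differed from each other.

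The first question asked of these genes was whether shM5 changed them in C18-4 cells. None of the 10 passed an adjusted p of 0.05 in limma over 11611 genes, where 34 genes (0.293%) rose and 34 (0.293%) fell, and 1 had an unadjusted p below 0.05, as did 12.3% of all genes. The median log2 fold change of the 10 was 0.02, against -0.002 over all tested genes. In a bulk library, a change in the RNA of every cell and a change in the share of cells with the RNA cannot be told apart.

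The abundant chaperones came first. Hspa5 encodes BiP, the Hsp70 of the ER that holds unfolded chains and keeps the sensors inactive. It was at 636, 608 and 393 RPKM in shNC replicates 1 to 3 and at 714, 690.5 and 508 RPKM in shM5 replicates 1 to 3. Each shM5 library was above the shNC library of the same number, but the groups overlapped, since both replicates numbered 3 were low. The log2 fold change was 0.24 (SE 0.21, adjusted p = 0.745). Hsp90b1, the ER Hsp90 known as GRP94, was at 838, 807 and 641 RPKM with shNC and at 850.2, 857 and 787 RPKM with shM5. Calr, a lectin chaperone that also stores calcium, was at 1219, 1187 and 851 RPKM with shNC and at 1256, 1263 and 1133 RPKM with shM5. In both genes shM5 replicates 1 and 2 were the highest of the 6 libraries, and shM5 replicate 3 lay below shNC replicates 1 and 2. Their log2 fold changes were 0.13 (SE 0.11, adjusted p = 0.729) and 0.18 (SE 0.14, adjusted p = 0.711).

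Folding enzymes and co-chaperones gave no call with all 6 libraries. Pdia4, a disulfide isomerase, was at 162, 165 and 150.1 RPKM with shNC and at 166, 167 and 153 RPKM with shM5. Sdf2l1, a cofactor of the BiP cycle, was at 36.2, 33.5 and 22.7 RPKM with shNC and at 29.4, 30.85 and 30.8 RPKM with shM5. The shM5 values lay inside the shNC range. Creld2, a secreted ER stress protein with disulfide isomerase activity, was at 98.0, 93.7 and 59.8 RPKM with shNC and at 88.8, 83.5 and 76.5 RPKM with shM5, again inside the shNC range. Dnajb9, a J protein of BiP that restrains IRE1, was at 19.8, 19.45 and 19.4 RPKM with shNC and at 21.9, 21.0 and 13.9 RPKM with shM5. Its spread with shM5 came from replicate 3 alone.

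Xbp1, the transcription factor whose mRNA IRE1 splices, was the only gene of the 10 whose groups did not overlap in C18-4 cells. It was at 54.7, 52.3 and 52.8 RPKM with shNC and at 47.7, 48.4 and 40.2 RPKM with shM5. The log2 fold change was -0.23 (SE 0.09, adjusted p = 0.356). Groups did not overlap in 9.55% of all tested genes with shM5 lower and in 9.3% with shM5 higher, so 1 of 10 is near the background. RPKM of the whole gene does not separate spliced from unspliced Xbp1 mRNA. The degradation factors gave no call either. Herpud1, which organises the ER-associated degradation (ERAD) complex, was at 43.7, 43.2 and 63.0 RPKM with shNC and at 50.9, 47.6 and 67.2 RPKM with shM5. Edem1, a lectin that hands misfolded glycoproteins to degradation, was at 19.7, 20.0 and 18.8 RPKM with shNC and at 20.5, 21.7 and 17.1 RPKM with shM5. Herpud1 was high where Hspa5 was low, in replicate 3 of both groups.

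**Figure D2:**
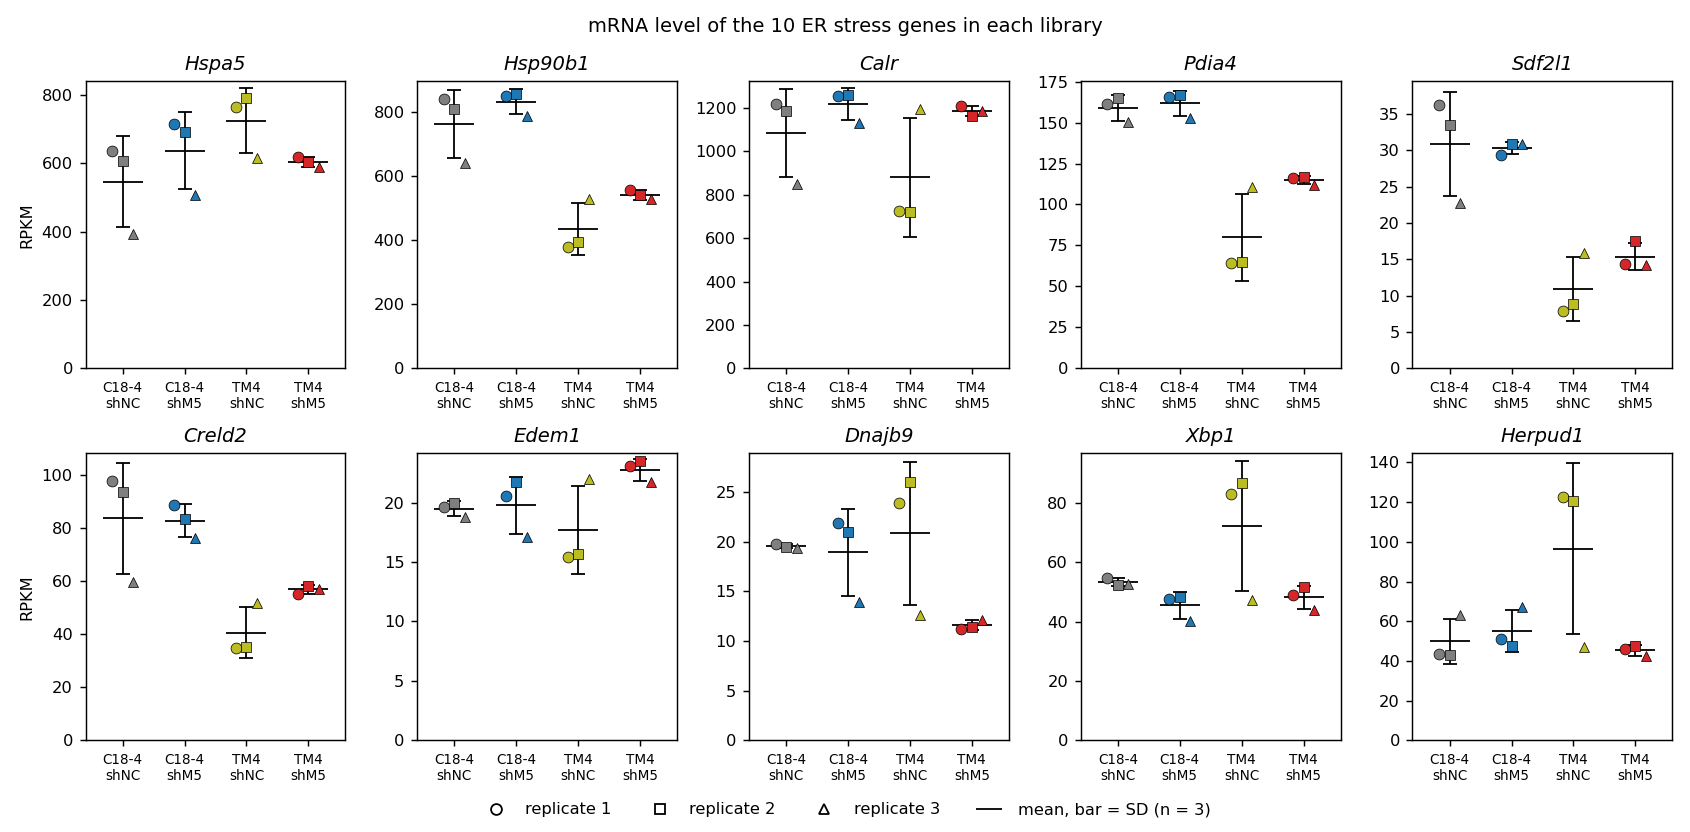
RPKM of each of the 10 genes (y axes, linear from 0) in the 4 groups, with the 3 libraries of a group as points shaped by replicate number, and the mean with its SD as bars. In TM4 cells shNC replicate 3 (triangle) lies within or next to the range of the shM5 libraries in all 10 genes. In C18-4 cells replicate 3 is lowest in both groups for Hspa5, Hsp90b1, Calr, Pdia4, Creld2, Edem1 and, with shNC by little, Dnajb9. It is highest in both groups for Herpud1.

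In C18-4 cells replicate 3 deviated from replicates 1 and 2 alike in both groups, so the replicate number was also used as a block. Among replicates 1 and 2, shNC and shM5 deviations correlated at 0.439 and 0.409 for equal numbers and at 0.341 and 0.345 otherwise. Pairing by number is thus not clearly shown for them. With the block, Hspa5 was higher with shM5 (log2 fold change 0.24, SE 0.05, adjusted p = 0.0235, range over the alternatives 0.0193 to 0.997). It was the only one of the 10 to pass, against 5.21% of all genes that rose and 6.73% that fell with the block. Xbp1 missed the threshold (adjusted p = 0.0514, range over the alternatives 0.0296 to 0.809), as did Herpud1 (log2 fold change 0.15, adjusted p = 0.0887). Without replicate 3 of both groups, 5 of the 10 passed, Hspa5 (0.17) and Herpud1 (0.18) higher and Sdf2l1 (-0.21), Creld2 (-0.15) and Xbp1 (-0.15) lower, where 12.8% of all genes rose and 13.4% fell. The 10 genes thus did not move one way together in C18-4 cells, and no difference that passed was larger than 0.24 on the log2 scale.

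In TM4 cells the 10 genes fell into sets that moved against each other. With all 6 libraries none passed in limma (smallest adjusted p = 0.192), and 0% of the 11016 genes tested did. An unadjusted p below 0.05 was found for 7 of the 10 and for 26% of all genes. Without shNC replicate 3 all 10 passed, 6 higher and 4 lower with shM5, where 36.5% of all genes rose and 30.9% fell. Most genes, 7433 of 11026, passed in this comparison, and the 10 of 10 stands beside that share. These calls rest on 2 shNC libraries. shNC replicate 3 was left out because its values in these same data lay with the shM5 libraries. Leaving it out widens the difference and narrows the spread, so the adjusted p-values depend on that choice. Whether the labels of the TM4 shNC libraries are right could not be checked from the values. Fibroblast and myoid markers also set shNC replicates 1 and 2 apart. The median of 8 of them, centred within the line, was -0.51 and -0.56 in shNC replicates 1 and 2, where 7 of the 8 were below the line mean, and 0.13 to 0.47 in the other 4 libraries. Their summed levels were 1427 to 1785 RPKM with shNC and 1580.3 to 2048 RPKM with shM5, and their part in the result was not tested. Over the alternatives the adjusted p of the 10 ER genes in TM4 cells ran from 1.95e-08 to 0.519.

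Hspa5 was at 766, 792 and 617 RPKM in shNC replicates 1 to 3 and at 618, 605 and 589 RPKM in the shM5 libraries. shNC replicates 1 and 2 were the highest of the 6, and shNC replicate 3 lay within the shM5 range. The log2 fold change was -0.25 (SE 0.10, adjusted p = 0.192) with all libraries and -0.37 (SE 0.04, adjusted p = 0.000119) without shNC replicate 3. Hsp90b1 went the other way, at 379.7, 394 and 527 RPKM with shNC and at 557, 539 and 527 RPKM with shM5 (log2 fold change 0.33, SE 0.13, adjusted p = 0.192). Calr was at 724, 721 and 1198 RPKM with shNC and at 1210.2, 1163 and 1189 RPKM with shM5 (log2 fold change 0.47, SE 0.20, adjusted p = 0.192). For both, shNC replicates 1 and 2 were the lowest of the line and shNC replicate 3 was inside the shM5 range. Without that library their log2 fold changes were 0.48 (SE 0.04) and 0.72 (SE 0.04).

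Pdia4, Creld2, Sdf2l1 and Edem1 followed Hsp90b1 and Calr. Pdia4 was at 64.1, 65.1 and 111 RPKM with shNC and at 116, 117 and 112 RPKM with shM5. Creld2 was at 34.9, 35.2 and 52.0 RPKM with shNC and at 55.3, 58.4 and 57.2 RPKM with shM5. In these 2 genes even shNC replicate 3 was below every shM5 library, so the groups did not overlap, as in 15.7% of all genes with shM5 higher. Sdf2l1 was at 7.95, 8.82 and 15.9 RPKM with shNC and at 14.4, 17.6 and 14.2 RPKM with shM5. Edem1 was at 15.5, 15.7 and 21.95 RPKM with shNC and at 23.1, 23.5 and 21.7 RPKM with shM5. In both, shNC replicate 3 sat inside the shM5 range. With all libraries the log2 fold changes of the 4 genes were 0.57 (Pdia4, SE 0.21), 0.51 (Creld2, SE 0.16), 0.56 (Sdf2l1, SE 0.27) and 0.38 (Edem1, SE 0.15), and without shNC replicate 3 they were 0.83, 0.70, 0.86 and 0.54.

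Dnajb9, Xbp1 and Herpud1 were high in shNC replicates 1 and 2. Dnajb9 was at 23.9, 26.0 and 12.6 RPKM with shNC and at 11.25, 11.4 and 12.2 RPKM with shM5. Its groups did not overlap, as in 11.1% of all genes with shM5 lower. Xbp1 was at 83.0, 86.5 and 47.1 RPKM with shNC and at 49.0, 51.6 and 44.0 RPKM with shM5. Herpud1 was at 123, 120.4 and 46.9 RPKM with shNC and at 46.1, 47.7 and 42.3 RPKM with shM5. Again shNC replicate 3 was at the level of the shM5 libraries. With all libraries the log2 fold changes were -0.77 (Dnajb9, SE 0.27), -0.53 (Xbp1, SE 0.24) and -0.96 (Herpud1, SE 0.37), none past the test, and without shNC replicate 3 they were -1.10, -0.82 and -1.42.

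**Figure D3:**
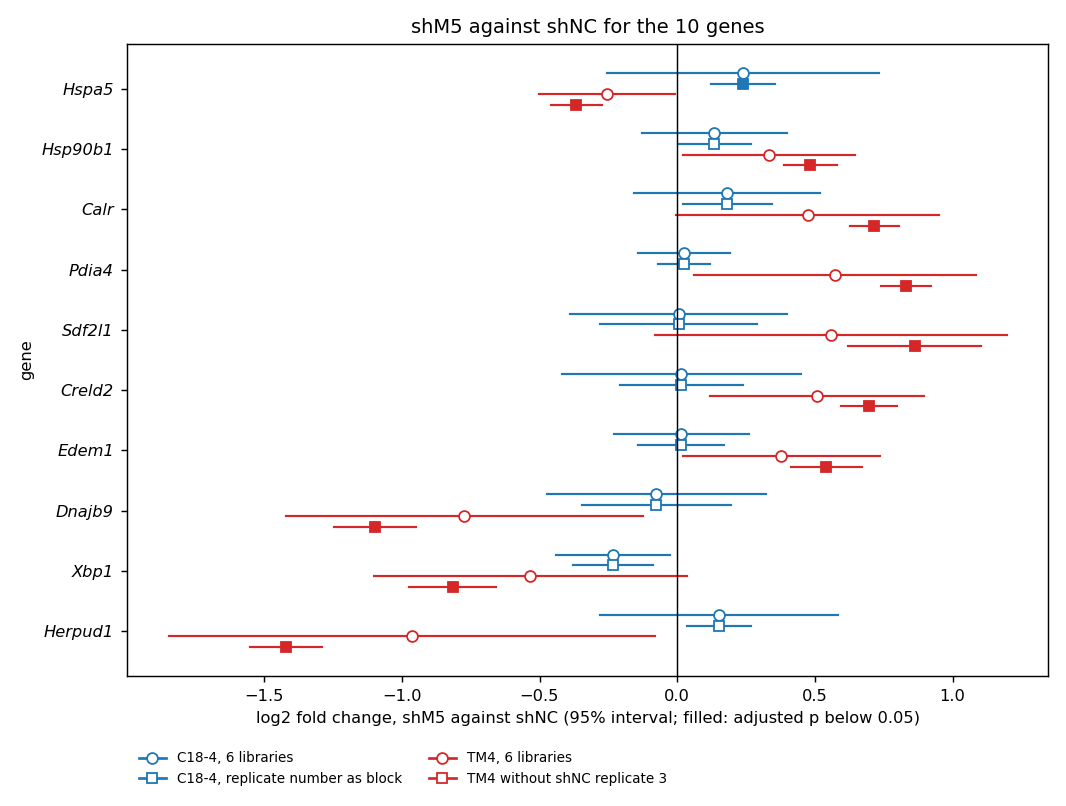
Log2 fold change of shM5 against shNC (x axis, log2(RPKM + 0.1) scale, with 95% interval) for each of the 10 genes in C18-4 cells (blue) and TM4 cells (red). Circles use all 6 libraries of a line, squares the replicate number as a block (C18-4) or the TM4 libraries without shNC replicate 3, and filled symbols passed an adjusted p of 0.05: Hspa5 in C18-4 with the block, and all 10 in TM4 without that library.

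Ratios within a library do not depend on scaling between libraries. Those given here divide genes that moved against each other in TM4 cells, so they restate the split in the values above. These ratios were chosen after the values were seen. The ratio of Hspa5 to Hsp90b1 was 2.02 and 2.01 in TM4 shNC replicates 1 and 2, 1.17 in shNC replicate 3 and 1.11 to 1.12 in the shM5 libraries. In C18-4 cells it was 0.753 to 0.759 in replicates 1 and 2 of shNC and 0.806 to 0.839 in those of shM5, and 0.614 and 0.645 in replicate 3. The ratio of Herpud1 to Pdia4 was 1.91 and 1.85 in TM4 shNC replicates 1 and 2 and 0.377 to 0.424 in the other 4 TM4 libraries. In C18-4 cells it was 0.262 to 0.307 in replicates 1 and 2 and 0.420 and 0.440 in replicate 3.

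**Figure D4:**
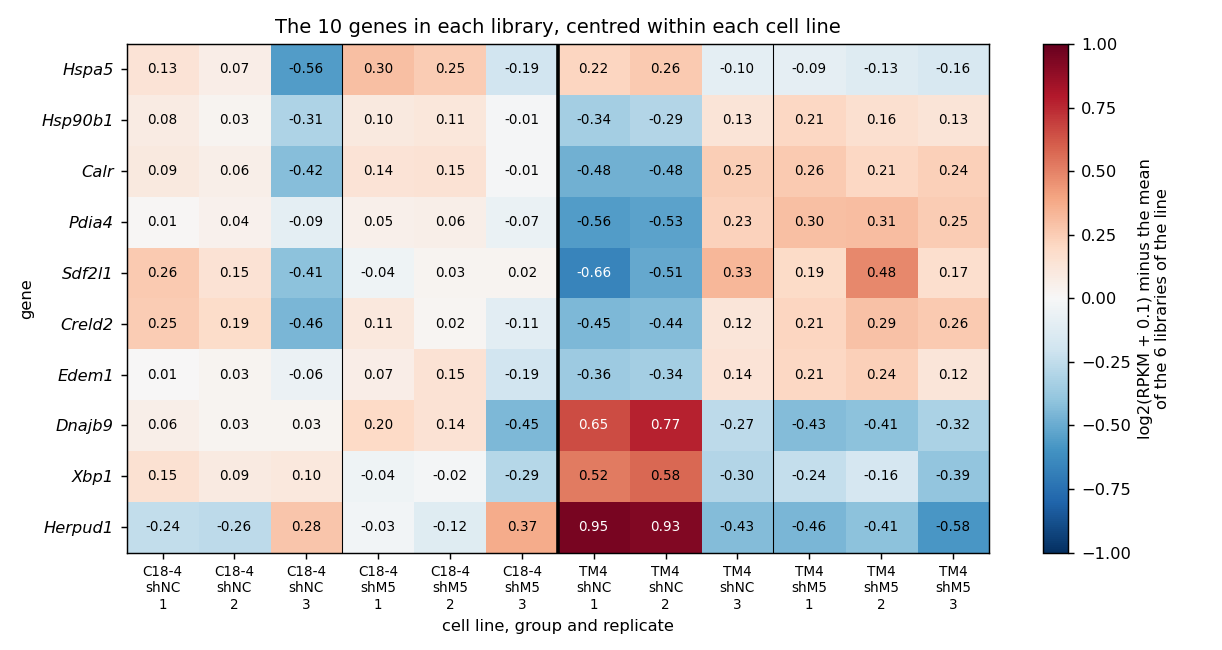
log2(RPKM + 0.1) of the 10 genes (rows) in the 12 libraries (columns), each minus the mean of the 6 libraries of its line, with the value written in each cell. TM4 shNC replicates 1 and 2 are below the mean for 6 genes and above it for Hspa5, Dnajb9, Xbp1 and Herpud1, and C18-4 shNC replicate 3 is lowest for Hspa5 at -0.56.

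The likeness of the 10 profiles over the 12 libraries, each centred within its line, followed these sets. Measured as the root mean square of their log2 differences, the distance between any 2 of Hsp90b1, Calr, Pdia4, Sdf2l1, Creld2 and Edem1 was between 0.0902 and 0.202. Dnajb9 and Xbp1 differed by 0.155, and Herpud1 differed from them by 0.323 and 0.320 and from Sdf2l1 by 0.819. Hspa5 lay between the sets, at 0.281 from Xbp1 and 0.302 from Hsp90b1. The mean profile of Hspa5, Hsp90b1, Pdia4 and Calr was most like those of Ube2l3, Ddx47, Hnrnpa1, Senp3, Dnajb11 and Ppp2r1a among the 7782 genes that averaged 5 RPKM or more in both lines. Their differences from it were 0.0256 to 0.0426, and a gene with no variation would differ by 0.184. Only Dnajb11, a J protein of BiP, is an ER chaperone. The genes closest to Herpud1, looked up after the values were seen, were Mthfd2 (0.0441), Qsox2, Zfp655, C9orf72, Got1 and Rin1 (0.0728). Among these only Mthfd2, a mitochondrial one-carbon enzyme, is a listed ATF4 target. The 12 libraries share their lines and their outlying libraries, so these distances are descriptions.

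The other genes of the ER pathway were then counted in lists. In C18-4 cells none of 24 ER folding genes, 21 ERAD genes, 9 UPR sensors and regulators and 17 ER translocation genes passed with all libraries, and 3, 4, 1 and 1 had an unadjusted p below 0.05, beside 12.3% of all genes. Their median log2 fold changes were 0.08, 0.10, 0.16 and 0.07. The most abundant ER folding genes were P4hb, Pdia3 and Pdia6, all disulfide isomerases, with log2 fold changes of 0.06, 0.11 and 0.22. With the replicate block 4 of 24 ER folding genes rose (Pdia6, Dnajc10, Sil1 and Hspa13) and 1 fell (Ero1lb), 2 of 21 ERAD genes rose (Selenos and Man1b1), Creb3 rose and Creb3l1 fell among the sensors, and Ssr2 rose among the translocation genes. Over all genes 5.21% rose and 6.73% fell with the block. Apart from Pdia6, Creb3, Creb3l1 and Ssr2, these were named after their values were seen. The largest of these changes was 0.39 for Creb3, an ER-bound transcription factor.

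In TM4 cells none of these lists had a call with all libraries either, and 17 of 24 ER folding, 2 of 20 ERAD, 3 of 9 sensor and 6 of 17 translocation genes had an unadjusted p below 0.05, beside 26% of all genes. Without shNC replicate 3, 16 ER folding genes rose and 5 fell, 10 translocation genes rose and 2 fell, 4 ERAD genes rose and 9 fell, and 3 sensors rose and 3 fell. Over all genes 36.5% rose and 30.9% fell, so the counts of the sensors are near the background. The ER folding list thus moved mostly as Hsp90b1 and Calr did. P4hb was at 357, 361 and 503 RPKM with shNC and at 521, 522 and 508 RPKM with shM5, and Pdia3 was at 358, 369 and 481 RPKM with shNC and at 514, 483 and 488 RPKM with shM5. Both were lowest in shNC replicates 1 and 2. Vcp, the ATPase that extracts proteins for degradation, was at 148, 151 and 226 RPKM with shNC and at 219, 215 and 236 RPKM with shM5. Among the sensor genes, Atf6 was at 38.8, 39.5 and 14.05 RPKM with shNC and at 14.8, 15.0 and 14.1 RPKM with shM5. Chosen after their values were seen, Ern1, the gene of IRE1, was at 34.5, 35.85 and 11.3 RPKM with shNC and at 11.5, 12.5 and 12.8 RPKM with shM5, and Eif2ak3, the gene of PERK, was at 4.13, 3.46 and 7.12 RPKM with shNC and at 8.16, 8.55 and 7.58 RPKM with shM5. Atf6 and Ern1 were thus high and Eif2ak3 low in shNC replicates 1 and 2. These are mRNA levels and say nothing of sensor activity.

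The question behind this choice of genes was whether changes of ATF4 type came with changes of ER chaperones. In TM4 cells all 36 ATF4 targets had a negative log2 fold change with all libraries (median -1.15), none passed, and 32 had an unadjusted p below 0.05, as did 26% of all genes. Without shNC replicate 3 all 36 fell (median -1.68), against 30.9% of all genes. The list had been chosen with this pattern known and is no independent evidence of its direction. Atf4 itself was at 446, 432 and 297 RPKM with shNC and at 267, 275 and 275 RPKM with shM5. Eif4ebp1, an inhibitor of cap-dependent translation, was at 854, 804 and 401 RPKM with shNC and at 360.5, 374 and 367 RPKM with shM5. Chac1, a glutathione-degrading enzyme named after its values were seen, was at 176, 162 and 17.9 RPKM with shNC and at 13.1, 13.5 and 10.95 RPKM with shM5. So in the libraries with high ATF4 targets, shNC replicates 1 and 2, Hspa5 was 1.24 to 1.34 times its level in the other TM4 libraries, Dnajb9, Xbp1 and Herpud1 were also high, and Hsp90b1, Calr, Pdia4, Sdf2l1, Creld2 and Edem1 were low.

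C18-4 cells showed part of the same arrangement between replicate numbers instead of between groups. The median of the ATF4 targets, centred within the line, was 0.53 and 0.45 in replicate 3 of shNC and of shM5, and between -0.27 and -0.21 in the other 4 libraries. In replicate 3, 35 of the 36 were above the line mean in each group. Asns, asparagine synthetase, was at 261, 261 and 441 RPKM with shNC and at 248, 258 and 387 RPKM with shM5. Chac1 was at 35.0, 37.7 and 107 RPKM with shNC and at 35.7, 36.2 and 96.1 RPKM with shM5. In the same 2 libraries the 10 ER genes had centred medians of -0.20 and -0.09, and Herpud1 was high, at 0.28 and 0.37. The other genes differed between these libraries. In shNC replicate 3 the lowest were Hspa5 (-0.56), Creld2 (-0.46), Calr (-0.42), Sdf2l1 (-0.41) and Hsp90b1 (-0.31), and in shM5 replicate 3 they were Dnajb9 (-0.45), Xbp1 (-0.29), Hspa5 (-0.19) and Edem1 (-0.19), with Hsp90b1 and Calr at -0.01. Hspa5 was thus low beside high ATF4 targets in C18-4 cells and high beside them in TM4 cells, while Herpud1 was high beside them in both lines. These comparisons are between libraries and not between groups of the design, and none was tested. shM5 against shNC gave no call among the 36 in C18-4 cells with all libraries (1 with an unadjusted p below 0.05, beside 12.3% of all genes, median -0.06). With the block 5 of the 36 were higher and 4 lower, beside 5.21% and 6.73% of all genes.

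**Figure D5:**
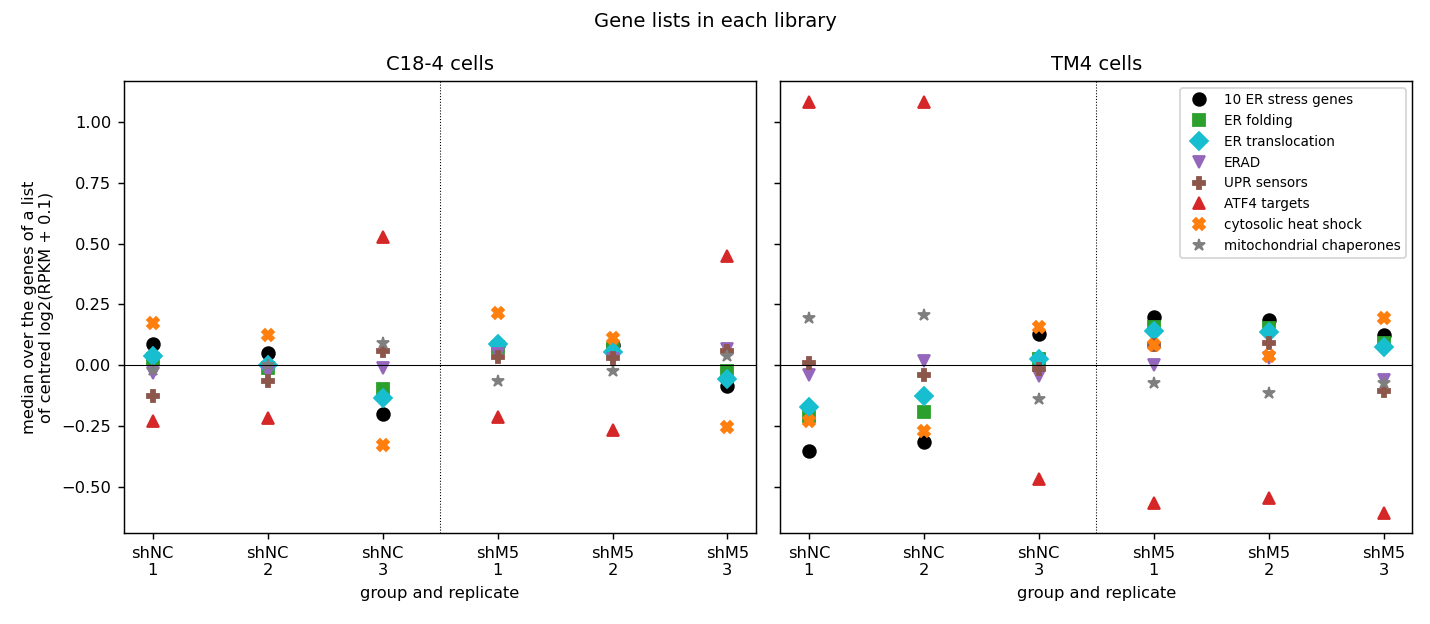
Median over the genes of a list of log2(RPKM + 0.1), each gene centred on the mean of the 6 libraries of its line (y axis), for each library (x axis) of C18-4 and TM4 cells. The ATF4 targets reach 1.08 in TM4 shNC replicates 1 and 2 and 0.53 and 0.45 in replicate 3 of C18-4 cells. In these libraries the median of the 10 ER stress genes is between -0.354 and -0.0872.

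Chaperones outside the ER were read beside these. With all libraries none of the cytosolic heat shock genes or mitochondrial chaperones passed in either line (unadjusted p below 0.05 for 1 of 18 and 0 of 9 in C18-4 cells, and for 4 of 15 and 3 of 9 in TM4 cells, beside 12.3% and 26% of all genes). In TM4 cells without shNC replicate 3, 10 of 15 cytosolic genes rose and 3 fell, and 7 of 9 mitochondrial genes fell, beside 36.5% of all genes that rose and 30.9% that fell. Hspa8, the constitutive cytosolic Hsp70, was at 498, 514 and 2017 RPKM with shNC and at 1949, 1900.1 and 2127 RPKM with shM5. Hspa9, the mitochondrial Hsp70, was at 852, 859 and 435 RPKM with shNC and at 398, 387 and 425 RPKM with shM5. Without shNC replicate 3 the Hsp70 of the ER, Hspa5, therefore fell as the mitochondrial one did, while the cytosolic one rose. In C18-4 cells Hspa8 was at 2001, 1903 and 1003 RPKM with shNC and at 1710, 1727 and 871 RPKM with shM5, low in replicate 3 as Hspa5 was.

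The shM5 effects of the lines were compared directly in 1 fit of all 12 libraries. None of the 10 genes passed (smallest adjusted p = 0.217, for Herpud1), and 0.102% of all genes did. An unadjusted p below 0.05 was found for 2 of the 10 and for 20.9% of all genes. The difference, C18-4 minus TM4, was 1.12 for Herpud1 (95% interval 0.14 to 2.09) and -0.55 for Pdia4 (95% interval -1.07 to -0.03), so the intervals were wide. Without TM4 shNC replicate 3, 3 of the 10 were higher in this difference (Dnajb9, Xbp1 and Herpud1, 16.4% of all genes) and 5 lower (Calr, Pdia4, Sdf2l1, Creld2 and Edem1, 21.5% of all genes). Hspa5 (0.61, adjusted p = 0.0922) and Hsp90b1 (-0.35, adjusted p = 0.0673) did not pass, and over the alternatives their adjusted p ran from 4.9e-05 to 0.536 and from 9.53e-05 to 0.796.

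The lines also differed in their levels with shNC. Higher in C18-4 cells were Sdf2l1 (log2 difference 1.53, SE 0.24, adjusted p = 0.000158), Pdia4 (1.04, SE 0.17, adjusted p = 0.000199), Creld2 (1.03, SE 0.19, adjusted p = 0.000506) and Hsp90b1 (0.82, SE 0.13, adjusted p = 0.000164). Herpud1 was lower (-0.85, SE 0.31, adjusted p = 0.0326, range over the alternatives 1.46e-09 to 0.131). In all genes 40% were higher and 25.6% lower in C18-4 cells, so 4 higher and 1 lower of 10 is near the background. RPKM set the median of all genes 0.15 higher in C18-4 cells, and with TMM scaling the split of 4711 higher and 3014 lower genes became 3727 and 3979. The 4 higher genes passed with TMM scaling, with median centring and with the replicate block too, and there Hspa5 and Xbp1 were lower as well. Without TM4 shNC replicate 3, 6 of the 10 were higher (44.1% of all genes) and 3 lower (29.5% of all genes), with Calr and Edem1 added above and Hspa5 and Xbp1 below. The shM5 groups gave 5 higher (Sdf2l1 0.98, Dnajb9 0.67, Hsp90b1 0.62, Creld2 0.54 and Pdia4 0.49) and 0 lower. Over all genes 37% were higher and 24.2% lower there. These groups share no library with the shNC groups, but the spread in this fit came from all 12 libraries. Without TM4 shNC replicate 3 the shM5 differences of the 10 were unchanged, and 5 were higher and 1 lower (Edem1 -0.21, adjusted p = 0.0477). In that fit 4961 of 11793 genes were higher and 3334 lower. With all 12 libraries, Sdf2l1 and Hsp90b1 remained with TMM scaling and with median centring, where 30.8% and 32.3% of all genes were higher. Pdia4 (adjusted p = 0.101 and 0.072), Creld2 (adjusted p = 0.120 and 0.0901) and Dnajb9 (adjusted p = 0.0911 and 0.0726) did not pass there. Hsp90b1 and Sdf2l1 were thus higher in C18-4 cells under both hairpins with RPKM as deposited and with both of these scalings, and the difference of Pdia4 and Creld2 with shM5 depended on the scaling. The difference of Herpud1 with shM5 was 0.27 (95% interval -0.42 to 0.96) and rested in the shNC libraries on TM4 replicates 1 and 2.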

How the data were processed

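mRNA of C18-4 and TM4 cells was measured by RNA-seq, 3 libraries for each of 4 groups, grouped by the sample titles. Per the methods, mRNA was captured on oligo(dT) beads; the authors mapped reads with SOAPaligner and deposited RPKM, per gene length and library size, with 2 decimals; the genome build is not given in the sources used here. RPKM keeps no read numbers, so no count model could be used. log2(RPKM + 0.1) was fitted with limma 3.58.1 (R 4.3.3, eBayes with trend) for every gene averaging 0.5 RPKM or more in the libraries compared, each line on its own and all 12 libraries for differences between lines, with Benjamini-Hochberg adjustment over all genes tested. A fold change on this scale understates that of low genes. The step was tested on simulated data with the spread of the shM5 libraries of each line. No library stood apart there as TM4 shNC replicate 3 does. The simulation therefore does not show what the step can find in the TM4 data as they are.

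In C18-4 cells the deviations of same-numbered shNC and shM5 libraries correlated across genes at 0.439, 0.409 and 0.631. Replicates 1 and 2 of unequal number correlated at 0.341 and 0.345, so mainly replicate 3 stood apart. The number was still taken to pair the libraries, and where a pairing would come from is not stated. The members and gene lists were chosen with earlier results of these data known. All 10 genes are named; of each list, the 3 most abundant genes could be named where none passed, or up to 4 of the largest calls; other names were chosen after their values were seen. Promoters were searched in Python 3.11.15 with pandas 2.3.3. Alternatives were other pseudocounts, filters, scalings, a fit without trend, the study's threshold, leaving out libraries and the replicate block.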

Additional observations from a re-analysis of the deposited data

How the results depend on the processing

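The number of the 10 genes that passed in C18-4 cells stayed at 0, except for 1 with the replicate block and 5 without replicate 3 of both groups. In TM4 cells it was 10 without replicate 3 of both groups and 10 without shNC replicate 3 with the block, an alternative chosen after seeing the data. Leaving out 1 library each gave 0 to 0 in C18-4 cells and 0 to 10 in TM4 cells, the 10 without shNC replicate 3. TM4 libraries of the same number correlated at 0.073, 0.049 and 0.127 in their deviations and share only a number. The block there gave 0 of 10, and with both lines 0 of 10 for the difference of the shM5 effects and 7 of 10 for the difference of the lines with shNC, with Hspa5 and Xbp1 added. It changed no other call among the 10 genes. The difference of the shM5 effects passed in 10 genes without replicate 3 of both groups and in 0 to 8 with 1 library left out. The difference of the lines with shNC passed in 10 without replicate 3 of both groups, in 3 at the study's threshold, and in 4 to 9 with 1 library left out, where the call for Herpud1 was lost without replicate 1 or 2 of either shNC group. The medians stayed between -0.01 and 0.10 in C18-4 cells and between 0.27 and 0.51 in TM4 cells with 1 library left out. Directions near 0 turned in C18-4 cells when 1 library was left out, with log2 fold changes from -0.0151 to 0.0662 for Pdia4, -0.199 to 0.136 for Sdf2l1, -0.211 to 0.144 for Creld2, -0.193 to 0.132 for Dnajb9 and -0.0552 to 0.1155 for Edem1. The lowest values of Pdia4, Sdf2l1 and Creld2 came without shNC replicate 3, and Dnajb9 turned without shM5 replicate 3. Without replicate 3 of both groups the values were -0.21 for Sdf2l1, -0.154 for Creld2 and 0.127 for Dnajb9. Between the lines with shNC, Dnajb9 ran from -0.351 to 0.169, positive without TM4 shNC replicate 1 or 2, and Edem1 turned to -0.0285 with TMM scaling. Beyond the libraries left out the cause was not tested. No direction of the 10 genes turned in TM4 cells. Differences within the spread of 3 libraries were not detectable, and without read numbers the part of counting error in that spread could not be estimated.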
